A study of Homo sapiens with 18 samples.

Results

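The 9 gene rows described here are 8 enzymes of deoxynucleotide supply for DNA replication and C2orf48, a row tied to RRM2. They were chosen by name and are RRM1, RRM2, TYMS, DUT, TK1, DTYMK, DCK, SAMHD1 and C2orf48, which is 9 of the 23368 gene rows in the count tables. All 9 symbols were found. C2orf48 was included to compare its reads with those of RRM2, of which RefSeq gives the symbol as a synonym.

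RNA was sequenced from SJSA-1 cells, a human osteosarcoma line that the study describes as carrying amplified MDM2 and CDK4 genes. The 18 libraries form 6 groups of 3 replicates. The DMSO group received solvent, and the Nutlin group received the MDM2 antagonist Nutlin at 20 µM for 6 h. The PD24 and PD30 groups received the CDK4/6 inhibitor PD0332991 (Palbociclib) at 10 µM for 24 h or 30 h. In the study's treatment scheme, PD0332991 was taken away for the last 6 h in PD24 and stayed until harvest in PD30. The N+PD24 and N+PD30 groups received either PD0332991 schedule together with Nutlin, which was present for the last 6 h. The scheme also lists a lower Nutlin dose, while the labels give 20 µM for all Nutlin libraries. All groups are the same line, whose response to the drugs may not be that of osteosarcoma cells in general. The study calls the replicates biological, while the labels number them and name no separate cultures, so p-values measure the spread between these libraries, which may be in part technical.

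Deoxynucleotides come from a reduction step and a salvage step. Ribonucleotide reductase, a complex of the large subunit RRM1 and a small subunit, turns ribonucleotides into deoxynucleotides, and dUTP is then led to thymidylate through DUT and TYMS. Kinases such as TK1 and DCK recover nucleosides, DTYMK phosphorylates dTMP, and SAMHD1 breaks dNTPs down. Many of these genes are switched on by E2F factors as cells pass from G1 into S phase, the step that CDK4/6 inhibitors block.

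Library totals ranged from 12704845 to 40231041 reads (median 29608936), and N+PD30 held the lowest. Levels are given as CPM, the reads of a gene per 1000000 counted reads of the library. The drug response genes answered in every library. CDKN1A, which encodes p21, lay between 143 and 219 CPM in DMSO and between 3859 and 4144 CPM in Nutlin, and MDM2 lay between 2509 and 2668 CPM in DMSO and between 19730 and 28170 CPM in Nutlin. The summed level of 6 markers of cycling cells (MKI67, TOP2A, CCNA2, CCNB1, PCNA, MCM2) was 2695 to 2996 CPM in DMSO, 1573 to 2164 in Nutlin, 111 to 126 in PD24, 94.9 to 107 in PD30, 175 to 182 in N+PD24 and 136 to 148 in N+PD30. These sums, like most of the enzymes below, were far lower with PD0332991, and their part in each result was not tested. Under PD0332991, the higher sums with Nutlin came from PCNA. Its means were 42.6 CPM in PD24, 138.9 in N+PD24, 35.2 in PD30 and 99.05 in N+PD30. The means of MKI67, TOP2A, CCNA2, CCNB1 and MCM2 were lower with Nutlin than without it in both schedules. In bulk RNA, fewer cycling cells and less RNA per cell cannot be told apart. The 9 osteoblast and bone markers summed to 2847 to 6495 CPM over all libraries. COL1A1, SPARC and COL1A2 made up most of this sum, while the group means of SP7, BGLAP and IBSP were at most 0.131 CPM. Sums of markers of other cell types were low but also moved with treatment, and their part in the results was not tested. The 3 epithelial markers summed to 10.6 to 13.15 CPM in DMSO, 23.6 to 31.0 in Nutlin, 17.2 to 22.4 in PD24, 20.6 to 22.15 in PD30, 26.85 to 30.6 in N+PD24 and 28.0 to 38.25 in N+PD30. KRT8 made up most of this sum, with group means of at most 0.784 CPM for EPCAM and 1.21 CPM for CDH1. The 3 immune markers summed to 13.7 to 19.9 CPM in DMSO, 17.1 to 24.5 in Nutlin and 24.3 to 36.5 in the groups with PD0332991. Nearly all of this sum was CD68, with group means of at most 0.283 CPM for PTPRC and 0.018 CPM for CD3E. The 2 endothelial markers summed to 0.576 to 1.00 CPM in DMSO, 1.40 to 2.40 in Nutlin, 1.60 to 2.02 in N+PD24 and 0.506 to 1.26 in the other groups with PD0332991.

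**Figure D1:**
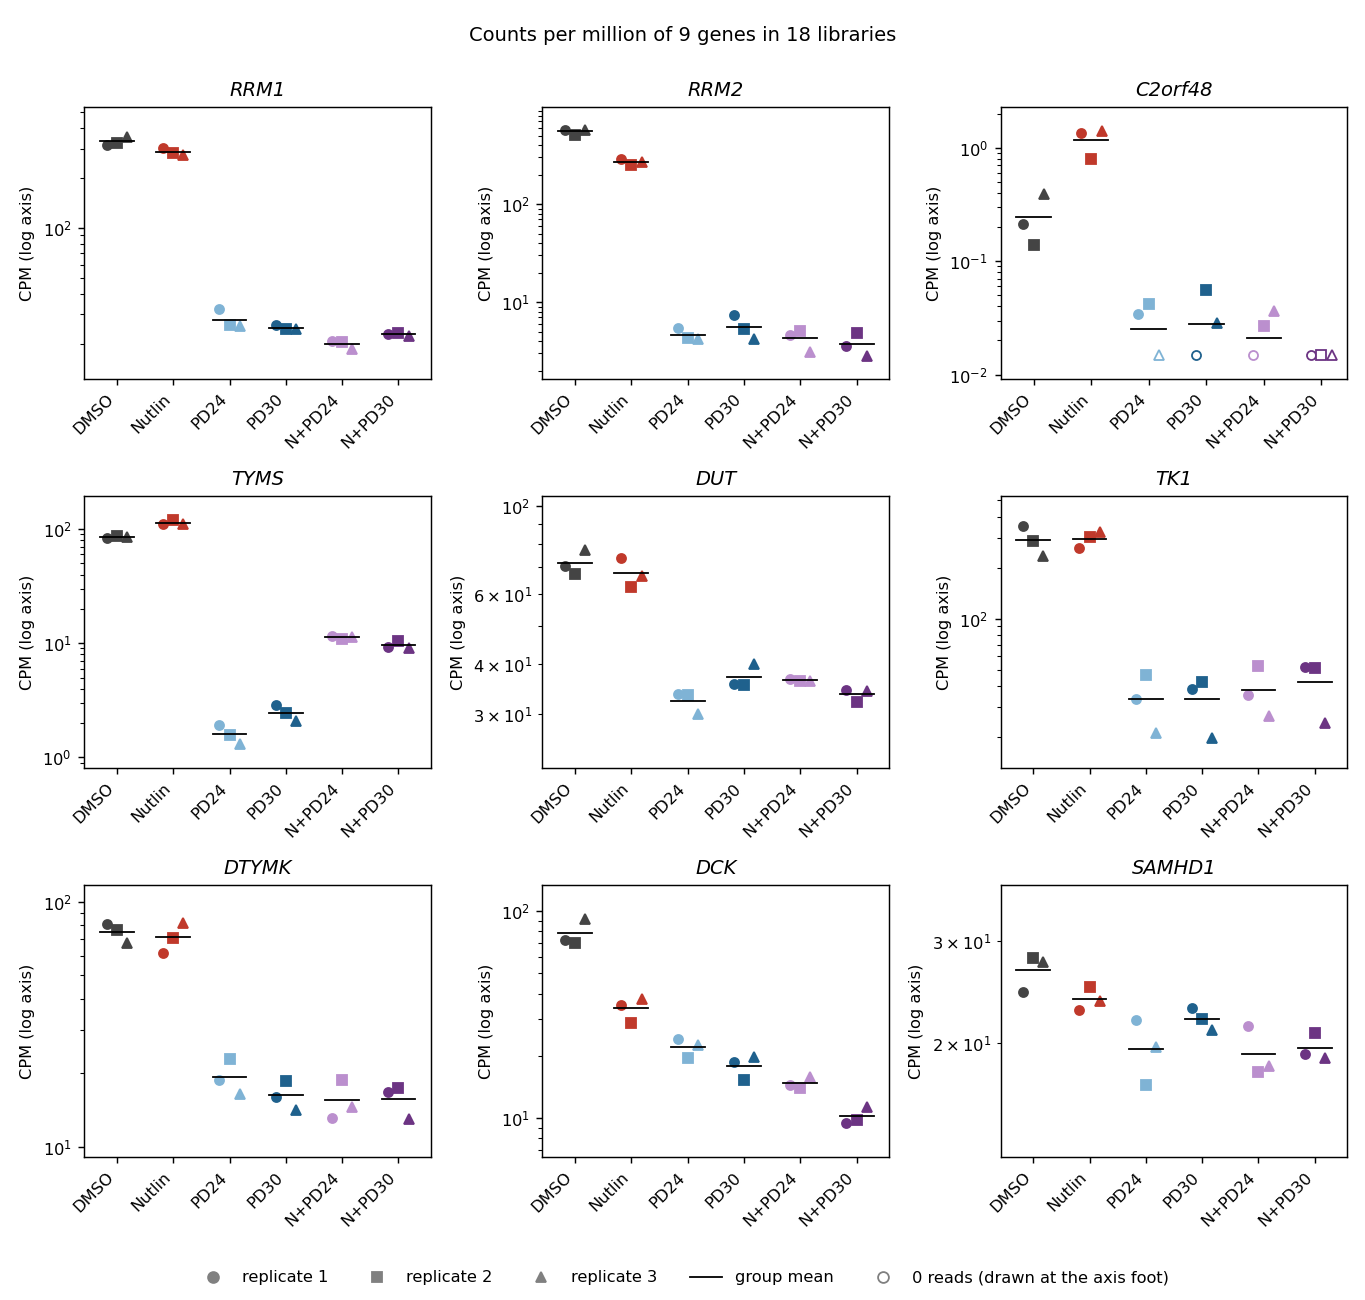
CPM of the 9 genes in each of the 18 libraries, on log axes that differ between panels. Points are libraries, bars are group means, and open points mark libraries with 0 reads. RRM2 and TYMS sit far lower in the 4 groups with PD0332991 than in DMSO, SAMHD1 spans a narrow range, and C2orf48 is highest in the 3 Nutlin libraries.

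Enzymes of both the reduction and the salvage step were lower with PD0332991. All 8 members tested were lower in PD30 than in DMSO (quasi-likelihood test of edgeR over 15125 genes, with calls below 0.05 after Benjamini-Hochberg adjustment). C2orf48 had too few reads to pass the filter. Of all genes tested, 25.4% were called lower and 22.9% higher in this comparison. The median log2 fold change of the 8 was -2.68, beside 0.00 over all genes tested. PD24 against DMSO also had 8 of 8 lower, against 20.8% of all genes, with 17.5% higher.

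RRM2, the small subunit of ribonucleotide reductase used in S phase, fell most. Its levels in replicates 1, 2 and 3 were 573, 508 and 577 CPM in DMSO, 5.43, 4.34 and 4.18 in PD24 and 7.37, 5.37 and 4.20 in PD30. Every PD0332991 library lay far below every DMSO library. The PD30 mean was 1.02% of the DMSO mean, with a log2 fold change of -6.64 ± 0.19 (SE, n = 3 per group, edgeR adjusted p = 8.00e-09), and RRM2 ranked 12 among the largest falls of all genes tested. In PD24 the log2 fold change was -6.87 ± 0.14 (adjusted p = 4.71e-09), rank 10.

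RRM1, the large subunit, fell less than RRM2 but also in every library. It stood at 317, 324 and 354 CPM in DMSO, 32.3, 26.0 and 25.5 in PD24, and 26.1, 24.6 and 24.4 in PD30. The groups did not overlap, and the log2 fold change was -3.75 ± 0.08 in PD30 (edgeR adjusted p = 3.15e-09) and -3.55 ± 0.12 in PD24 (6.45e-08).

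TYMS, thymidylate synthase, was the second member by size of fall. Its DMSO libraries held 83.0, 86.5 and 85.8 CPM, the PD24 libraries 1.94, 1.56 and 1.32, and the PD30 libraries 2.89, 2.45 and 2.07. The PD30 mean was 2.90% and the PD24 mean 1.88% of the DMSO mean. edgeR gave log2 fold changes of -5.13 ± 0.13 (adjusted p = 5.02e-09) and -5.72 ± 0.16 (1.70e-08).

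DUT, which hydrolyses dUTP and so supplies the substrate of TYMS, moved much less. It lay between 67.2 and 77.5 CPM in DMSO and between 35.5 and 40.1 CPM in PD30, with no overlap (log2 fold change -0.97 ± 0.09, edgeR adjusted p = 2.42e-05). In PD24 it lay between 30.0 and 33.6 CPM (-1.12 ± 0.11, 6.61e-05). GENCODE holds 8 named DUT pseudogenes, 3 of RRM2 and 2 of TYMS, so reads shared with such copies leave the levels of these genes uncertain.

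Of the kinases, TK1, which phosphorylates thymidine, had the widest spread between replicates. Replicate 3 was the lowest library in 5 of the 6 groups, with 351, 286 and 234 CPM in DMSO and 38.6, 42.4 and 19.8 CPM in PD30. The DMSO and PD30 libraries did not overlap despite this spread (log2 fold change -3.13 ± 0.27, edgeR adjusted p = 1.58e-05), and in PD24 the log2 fold change was -3.08 ± 0.29 (5.39e-05). DTYMK, the dTMP kinase, went from between 67.8 and 80.8 CPM in DMSO to between 14.1 and 18.5 in PD30 (-2.23 ± 0.13, 7.66e-07) and between 16.4 and 22.7 in PD24 (-1.94 ± 0.15, 1.64e-05). DCK, which phosphorylates deoxycytidine and purine deoxynucleosides, had 72.7, 70.4 and 91.6 CPM in DMSO and 18.6, 15.3 and 19.7 CPM in PD30, again without overlap (-2.14 ± 0.13, 1.37e-06). Its PD24 libraries held 24.2, 19.6 and 22.5 CPM (-1.80 ± 0.13, 1.05e-05).

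SAMHD1, the dNTP triphosphohydrolase, changed least. Its libraries held 24.5, 28.0 and 27.5 CPM in DMSO, 21.9, 17.0 and 19.7 in PD24 and 22.9, 21.9 and 21.0 in PD30. The groups did not overlap, but the fall was small (PD30 log2 fold change -0.30 ± 0.10, edgeR adjusted p = 0.0347, and PD24 -0.43 ± 0.13, 0.0257). The call was lost after quantile normalization in PD30 (adjusted p = 0.418) and PD24 (0.138). It was also lost in PD30 without any 1 of 5 of the 6 libraries, DMSO replicate 1 being the exception (0.0631 to 0.145), and in PD24 without DMSO replicate 2, DMSO replicate 3 or PD24 replicate 2 (0.0639 to 0.110).

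**Figure D2:**
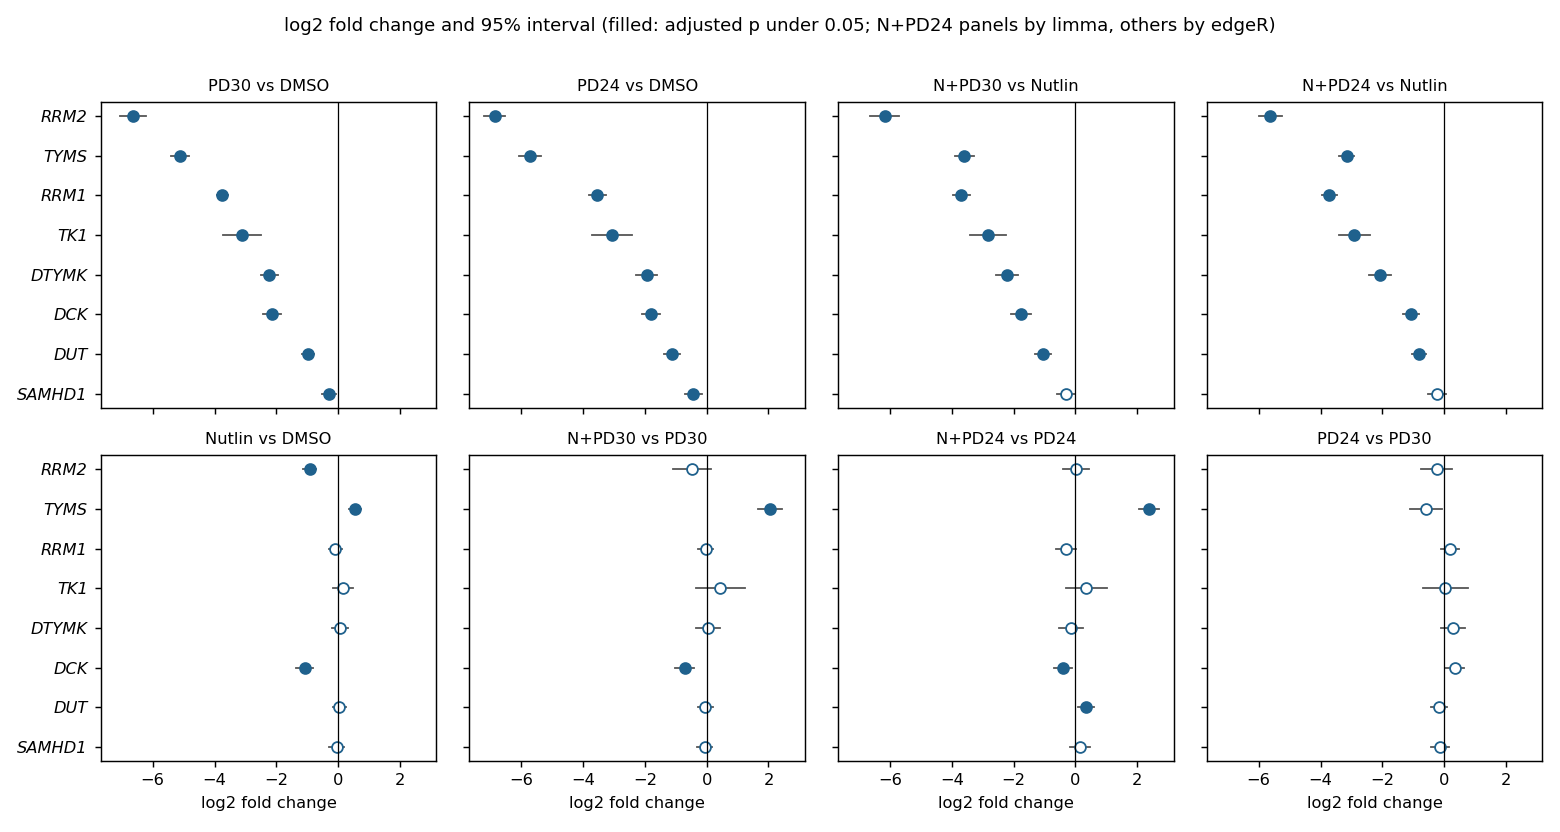
Fitted log2 fold changes of the 8 enzymes in 8 comparisons, with 95% intervals. Filled points passed an adjusted p of 0.05. The upper row holds the 4 comparisons of PD0332991 with its absence, where RRM2 lies furthest to the left and SAMHD1 nearest to 0. In the lower row, TYMS is higher and DCK lower in the 3 comparisons of Nutlin with its absence, and RRM2 was called lower only in Nutlin against DMSO.

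PD24 and PD30 differ in whether PD0332991 was still present for the last 6 h, and so compare these genes after withdrawal. Of the 8 members tested, 0 were called between them by edgeR and 0 by DESeq2, while 12.2% of all genes were called lower and 12.9% higher in PD24. At an unadjusted p, TYMS (0.0312) and DCK (0.0313) were the 2 of 8 under 0.05, and the TYMS libraries of the 2 groups did not overlap. Same-numbered replicates of the 2 groups deviated together. With the replicate number as a block, TYMS was lower (log2 fold change -0.59, adjusted p = 0.0298) and DCK higher (0.34, 0.0268) in PD24, and a fit over 15 libraries also called TYMS (0.0102). The 95% interval for RRM2 ran from -0.75 to 0.26 and that for TK1 from -0.70 to 0.78 on the log2 scale, so changes of that size were not excluded for either gene.

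With Nutlin alone, 2 of 9 members were called lower and 2 higher, near the shares over all genes. RRM2 and DCK fell, TYMS and C2orf48 rose, and 5 members were not called (edgeR over 15766 genes, of which 28% were called lower and 26.6% higher). C2orf48 was tested here only because it passed the filter through its Nutlin libraries. RRM2 held 291, 249 and 267 CPM in Nutlin, all below the DMSO libraries, at 48.7% of the DMSO mean (log2 fold change -0.91 ± 0.09, adjusted p = 3.58e-05). DCK held 35.0, 28.9 and 37.8 CPM, all below DMSO (-1.08 ± 0.13, 8.40e-05).

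TYMS went the other way. Its Nutlin libraries held 112, 119 and 110 CPM, all above the DMSO libraries, which gives 1.34 times the mean CPM of DMSO (log2 fold change 0.55 ± 0.09 after TMM scaling, adjusted p = 5.27e-04). RRM1 lay between 274 and 304 CPM, below every DMSO library on the CPM scale, but its fitted log2 fold change was -0.08 ± 0.09 (adjusted p = 0.453). Quantile normalization called RRM1 lower (-0.23, 0.0280). DUT (0.04), TK1 (0.15), DTYMK (0.05) and SAMHD1 (-0.04) had log2 fold changes near 0, with overlapping libraries and adjusted p values from 0.385 to 0.779. The interval was widest for TK1, from -0.16 to 0.47.

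RRM2B, the other small subunit of ribonucleotide reductase, is a known p53 target and no member. It lay between 68.4 and 71.9 CPM in DMSO and between 263 and 325 CPM in Nutlin, a log2 fold change of 2.17 ± 0.11 (edgeR adjusted p = 7.79e-07). Each small subunit gene thus moved in its own direction with Nutlin, RRM2 down and RRM2B up, with the groups of both genes apart. In PD30, RRM2B lay between 69.7 and 86.8 CPM and was not called (0.11 ± 0.09, 0.351). In PD24, with 49.6 to 57.8 CPM, it was lower than in DMSO (-0.34 ± 0.09, 0.0204), a call lost without DMSO replicate 2 or 3 (0.0650 to 0.0901) and in the fit over 15 libraries (0.110). RRM2B was also lower in PD24 than in PD30 (-0.45 ± 0.11, 0.0177), and that call was lost without PD30 replicate 1 or 3 (0.0546 to 0.0621).

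**Figure D3:**
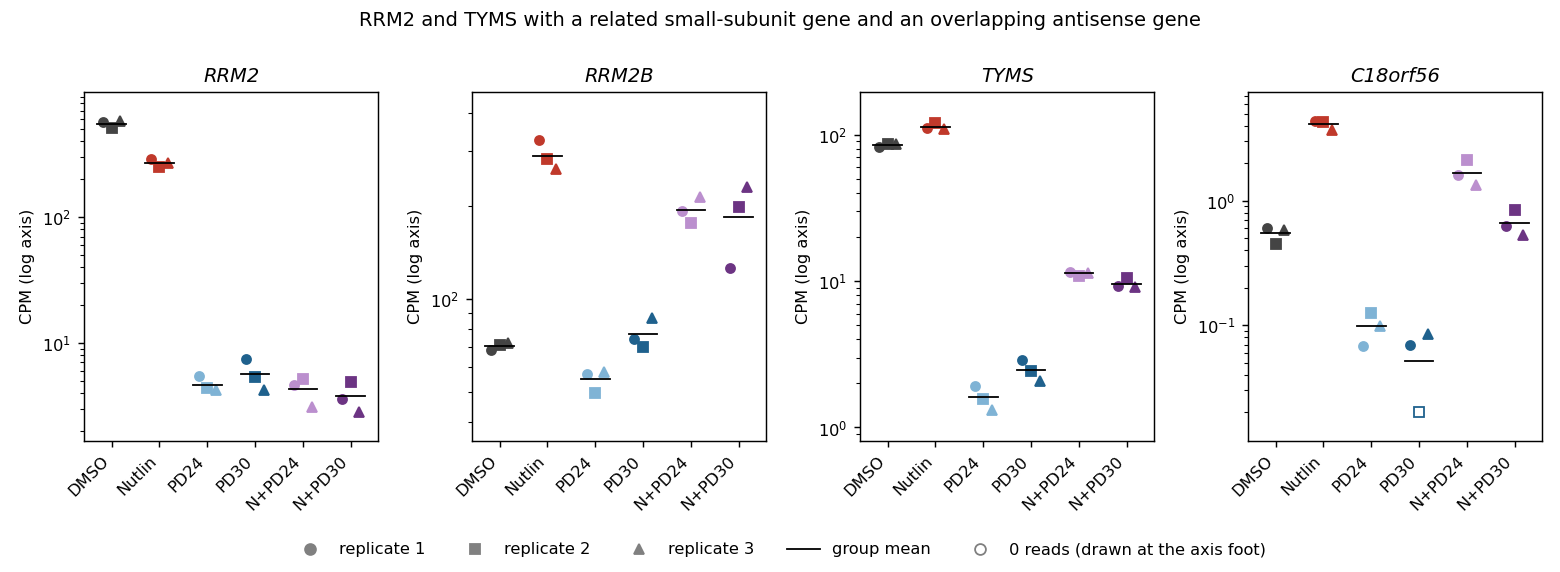
CPM of RRM2, RRM2B, TYMS and C18orf56 in each library on log axes. Points are libraries, bars are group means, and the open point is a library with 0 reads. RRM2B and C18orf56 are higher in each of the 3 groups with Nutlin than in the matching group without it, while RRM2 lies between 2.81 and 7.37 CPM in the 12 libraries with PD0332991.

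Nutlin was then compared in the presence of PD0332991. TYMS rose with either schedule. It held 9.21, 10.6 and 9.10 CPM in N+PD30, all above the 3 PD30 libraries, a mean 3.89 times as high (log2 fold change 2.06 ± 0.17, edgeR adjusted p = 2.72e-04). In N+PD24 it held 11.5, 10.9 and 11.4 CPM, all above PD24 and 7.03 times its mean. Contrasts with N+PD24 were fitted with limma on log2(CPM + 1), since these libraries were deposited as scaled values, and this scale understates the change of low genes. limma gave 2.37 ± 0.14 (adjusted p = 5.91e-06). TYMS in both combinations still lay far below its level in DMSO and Nutlin.

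On the log2 scale, the response of TYMS to Nutlin was larger with PD0332991 than without it. In CPM the rise was smaller and began from low levels. Mean CPM went from 85.1 in DMSO to 113.8 in Nutlin. It went from 2.47 in PD30 to 9.62 in N+PD30 and from 1.60 in PD24 to 11.27 in N+PD24. The difference between the responses, tested as an interaction over 12 libraries, was 1.57 ± 0.16 on the log2 scale for the 30 h schedule (edgeR adjusted p = 1.18e-04) and 1.81 ± 0.15 for the 24 h schedule (limma, 6.84e-05). TYMS was the 1 of 9 members with a higher interaction for PD30, beside 12.8% of all genes, and 0 members were lower, beside 7.03%. For PD24, 2 of 8 members were higher, TYMS and RRM2, beside 0.958% of all genes, and 0 were lower, beside 0.713%. The call of TYMS held without each of the 12 libraries in turn for both schedules, while that of RRM2 was lost in 10 of the 12 fits.

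DCK fell further with the combination. N+PD30 libraries held 9.45, 9.78 and 11.3 CPM, all below PD30 (log2 fold change -0.72 ± 0.14, edgeR adjusted p = 0.0137). The call was lost without PD30 replicate 1, PD30 replicate 3 or N+PD30 replicate 2 (0.0515 to 0.0723). In N+PD24, with 14.4, 14.1 and 15.8 CPM, DCK was below PD24 (limma, -0.39 ± 0.13, 0.0422), and this call was lost after quantile normalization (0.229) and without any 1 of 5 of the 6 libraries, PD24 replicate 2 being the exception (0.0646 to 0.145). The interaction for DCK was not called in PD30 (0.41 ± 0.19, 0.136) or PD24 (0.64 ± 0.17, 0.101). With the replicate block it was called in both (0.0305 and 0.0284), but not all pairs of these 4 groups met the rule used here for pairing.

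In N+PD30 against PD30, TYMS was thus the 1 member called higher and DCK the 1 called lower of 8 tested, beside 8.84% and 5.64% of all genes. The 2 groups paired by number, and the block also called TK1 higher (log2 fold change 0.42, adjusted p = 0.0179), whose fit without the block was 0.43 ± 0.35 (0.417). In N+PD24 against PD24, 2 of 8 members were called higher and 1 lower (limma), beside 16.4% and 20.5% of all genes. The second was DUT (0.34 ± 0.12, 0.0453), whose call was lost without any of the 6 libraries (0.0673 to 0.128), with edgeR on the recovered reads (0.0689), with scaling by total (0.253) and without a filter (0.0914). These 2 groups also paired by number, and the block added TK1 as higher (0.35, 0.00889) and RRM1 as lower (-0.30, 0.0292). Scaling by total also called RRM1 lower (-0.47, 0.0217), which left the median of all genes at -0.13.

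No further fall of RRM2 was called. It held 3.54, 4.87 and 2.81 CPM in N+PD30 and 4.63, 5.12 and 3.11 in N+PD24, overlapping the libraries of PD0332991 alone. Against PD30 the log2 fold change was -0.48 ± 0.27 (edgeR adjusted p = 0.251), with an interval from -1.09 to 0.14. The interaction for RRM2 was 0.91 ± 0.21 in PD24 (limma adjusted p = 0.0487) and 0.50 ± 0.27 in PD30 (0.206). The first was lost without any 1 of 10 of the 12 libraries, PD24 replicate 1 and N+PD24 replicate 3 being the exceptions (0.0563 to 0.156), and with a pseudocount of 0.25 (0.0907), edgeR on the recovered reads (0.0757) or no filter (0.0608).

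RRM2B kept rising with Nutlin under PD0332991, from between 69.7 and 86.8 CPM in PD30 to 126, 198 and 230 CPM in N+PD30, without overlap (log2 fold change 1.35 ± 0.19, edgeR adjusted p = 0.00435). In N+PD24 it lay between 176 and 214 CPM (limma, 1.97 ± 0.12 against PD24, 5.91e-06). The rise was smaller with PD30 than without it, by 0.77 ± 0.23 on the log2 scale (interaction, adjusted p = 0.0319). That call was lost without any 1 of 7 of the 12 libraries (DMSO replicates 1, 2 and 3, Nutlin replicates 1 and 2, PD30 replicates 1 and 3, with 0.0516 to 0.0767). With PD24 the interaction was not called (-0.21 ± 0.15, 0.643).

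PD0332991 added to Nutlin was compared with Nutlin alone. In N+PD30, 8 of 9 members were lower (edgeR), beside 24.7% of all genes, with 24.3% higher. The 8 include C2orf48, which passed the filter only through the Nutlin libraries. The log2 fold changes of 7 of the 8 enzymes ran from -6.18 ± 0.22 in RRM2 (adjusted p = 1.77e-08) to -1.05 ± 0.12 in DUT (6.44e-05), with no overlap between the groups. SAMHD1 was not called (-0.32 ± 0.13, 0.0694), though quantile normalization (0.0396) and the fit over 15 libraries (0.0169) called it lower. In N+PD24, 7 of 8 tested were lower (limma), beside 18.8% of all genes and 18.6% higher, with RRM2 at -5.63 ± 0.16 (7.54e-08) and SAMHD1 again not called (-0.24 ± 0.13, 0.173). The 2 groups paired by number, and the block changed no member's call while raising the count over all genes from 5223 to 7956.

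Between the 2 combinations, DCK differed. N+PD24 libraries were all above N+PD30 libraries (limma, log2 fold change 0.62 ± 0.13, adjusted p = 0.00634), and 1 of 8 members was called higher beside 16.6% of all genes, while 0 members and 16.1% of all genes were lower. TYMS was not called (0.34 ± 0.13, 0.0781), except after quantile normalization (0.0307), although its libraries did not overlap. Scaling by total left the median of all genes at -0.12 here, with DCK still called.

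The order of levels over the 6 groups differed between members. RRM2 was highest in DMSO, then Nutlin, and the 4 PD0332991 groups were not called apart in the 4 comparisons among them. DCK stepped down from DMSO through Nutlin, PD24, PD30 and N+PD24 to N+PD30, where PD24 overlapped PD30 and PD30 overlapped N+PD24. TYMS was highest in Nutlin, then DMSO, N+PD24, N+PD30, PD30 and PD24, and its neighbours N+PD24 and N+PD30, like PD30 and PD24, were not called apart outside the alternatives given above. For DUT, DTYMK, TK1 and RRM1, DMSO and Nutlin were not called apart, and both lay above every library with PD0332991.

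C2orf48 is read here against RRM2. GENCODE v44 on GRCh37 does not list the symbol, and RefSeq gives it as a synonym of RRM2. In GENCODE the RRM2 gene spans chr2:10260825-10351851 on the plus strand. Its main transcript, with 10 exons, covers chr2:10262866-10271541, and another, with 4 exons, begins 9967 bases past that end and covers chr2:10281509-10351851. A further one joins both, with 9 of its 12 exons within the main transcript and 3 past it. The junction is shown because a read across it would overlap exons of both places. With HTSeq's union mode, a read over exons of 2 symbols is counted for neither. The position of C2orf48 in the annotation the authors counted with is not given in the sources used here. Lower case is the end of the RRM2 exon (chr2:10269267-10269281), and capitals are the start of the downstream exon (chr2:10281981-10281995), both on the plus strand of GRCh37.
RRM2 to downstream exon: ctgggttttagcaagGTGCTGGGAGACCGT

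C2orf48 had few reads, which rose with Nutlin alone and were sparse with PD0332991. Replicates 1, 2 and 3 held 7, 4 and 12 C2orf48 reads in DMSO and 41, 24 and 38 in Nutlin, where every library was above every DMSO library. The log2 fold change was 2.36 ± 0.38 (edgeR adjusted p = 5.94e-04), and over the pooled reads of each group the CPM ratio was 4.74 (95% interval 2.99 to 7.81, counting error only). The row passed the filter only through the Nutlin libraries, where it was high, so its being called is no independent support for the rise. RRM2 fell in the same comparison. The RNA of the 2 rows thus moved in opposite directions with Nutlin.

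With PD0332991 alone C2orf48 held 1, 1 and 0 reads in PD24 and 0, 2 and 1 in PD30, over library totals of at least 23720994 reads. The pooled CPM was 0.0864 times that of DMSO in PD24 (0.00987 to 0.35) and 0.121 times in PD30 (0.0232 to 0.4), and neither comparison was tested, since the row did not pass the filter. With Nutlin added it was as sparse. N+PD24 held 0, 1 and 1 reads, 0.0191 times the pooled CPM of Nutlin (0.00229 to 0.0709). N+PD30 held 0 in all 3 libraries, at least 24.7-fold lower than Nutlin when set at the limit of 3 reads over the group. This comparison was called by edgeR (adjusted p = 1.09e-04), but here too the row passed the filter only through the Nutlin libraries.

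Set against RRM2, C2orf48 had 0.448 reads per 1000 RRM2 reads in DMSO (exact 95% interval 0.284 to 0.672) and 4.36 in Nutlin (3.56 to 5.30). By library the share was 0.37, 0.273 and 0.672 in DMSO and 4.62, 3.21 and 5.25 in Nutlin, so the groups were apart. In PD30 it was 5.41 (1.11 to 15.9) and in PD24 4.64 (0.56 to 16.9), from 3 and 2 reads. The PD30 interval lay above that of DMSO, and the PD24 interval overlapped it. N+PD24 gave 5.15 (0.622 to 18.7), and N+PD30 gave 0 reads beside 248 RRM2 reads, with an exact interval of 0 to 15 (12.1 at the limit of 3 reads). These intervals cover counting error only.

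**Figure D4:**
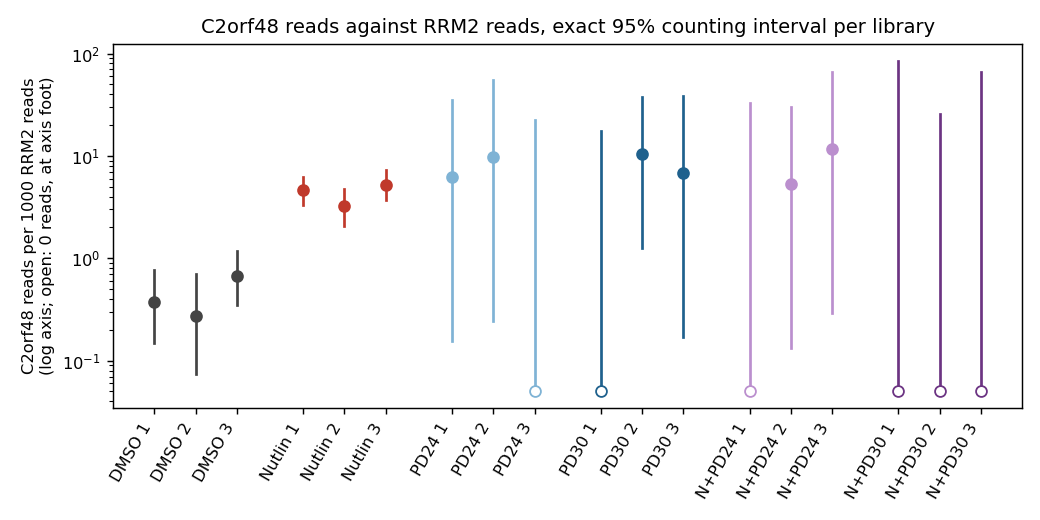
C2orf48 reads per 1000 RRM2 reads in each library on a log axis, with exact 95% counting intervals. Open points are libraries with 0 C2orf48 reads, drawn at the foot of the axis. The 3 Nutlin libraries lie above the 3 DMSO libraries, and the libraries with PD0332991 have intervals too wide to place.

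The genes most like RRM2 over the 18 libraries were NUSAP1, KIF20A, ASPM, MKI67 and BUB1B, which act in mitosis or mark cycling cells. Likeness was the root mean square difference of log2(CPM + 1) after centring each gene, from 0.24 for NUSAP1 to 0.322 for BUB1B, among 9492 genes with a mean of at least 10 CPM. RRM1 ranked 95 and TYMS 121 by this measure, and SAMHD1 ranked 1764. For C2orf48, with each gene also scaled to unit variance, the nearest of 18289 genes were LOC643529, LOC100652791, DRP2, HCG27 and OR2B6 (0.244 to 0.314), and RRM2 ranked 849. These are descriptions over libraries that share groups.

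TYMS overlaps 2 genes on the other strand, and both were examined beside its rise with Nutlin. TYMS lies at chr18:657653-673578 (GRCh37, plus strand). Its start shares 193 exon bases with the antisense RNA TYMSOS, named C18orf56 in the count tables, and its end shares 967 exon bases with ENOSF1. The counting assumed reverse-stranded reads, but whether the library kit keeps the strand is not stated, so reads of TYMS and of these partners over shared bases cannot be told apart. C18orf56 held 20, 13 and 18 reads in DMSO (0.451 to 0.606 CPM) and 133, 129 and 100 in Nutlin (3.69 to 4.36 CPM), all higher, with a log2 fold change of 3.03 ± 0.22 (edgeR adjusted p = 5.26e-06). ENOSF1 lay between 22.5 and 28.6 CPM in DMSO and between 19.8 and 21.2 in Nutlin and was not called (-0.19 ± 0.12, 0.185).

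C18orf56 also rose with Nutlin under PD0332991. It had 2, 0 and 3 reads in PD30 against 8, 25 and 11 in N+PD30 (log2 fold change 3.74 ± 0.59, edgeR adjusted p = 0.00714), and 2, 3 and 4 in PD24 against 39, 78 and 37 in N+PD24 (limma, 1.34 ± 0.15, 1.57e-04). Per 1000 TYMS reads it had 6.47 reads in DMSO (4.81 to 8.51), 36.3 in Nutlin (32.6 to 40.3), 71.1 in N+PD30 (51.1 to 96.6) and 154 in N+PD24 (129 to 183). Without Nutlin it had 61.2 in PD24 (27.5 to 119) and 20.4 in PD30 (6.57 to 48.3), from 9 and 5 reads, so the PD24 interval also lay above that of DMSO and overlapped that of Nutlin. Both partners of this pair rose with Nutlin, the antisense gene by the larger factor. The interaction for C18orf56 was not called in PD30 (edgeR, 0.77 ± 0.59, 0.390) or PD24 (limma, -0.45 ± 0.18, 0.295). The PD24 value is on log2(CPM + 1), which understates a change from the PD24 mean of 0.098 CPM, so its sign is not informative. In mean CPM the Nutlin response was 17.2-fold with PD24 and 7.53-fold without it.

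Other members also share exon bases with neighbours in GENCODE. DUT shares 533 with DUT-AS1, SAMHD1 1068 with TLDC2 and RRM1 63 with RRM1-AS1, all on the opposite strand. DCK shares 199 with MOB1B on its own strand.

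The promoters of the 8 enzymes were read from RefSeq on GRCh38.p14, as the 250 bases before the most upstream start, and 8 of 8 were found. The E2F-type motif TTTNNCGC, searched on both strands, was in 1 of the 8, against 5.92% of 27305 promoters. That 1 is TYMS, an enzyme called higher with Nutlin under both PD0332991 schedules. A link between the motif and this rise was not tested. CCAAT was in 4 of 8 (33.0% of all) and TTTGAA in 1 of 8 (13.6%). A missing match says only that the letters are not in this window. The window is chr18:657403-657652 of that build, plus strand, and the capitals mark the motif as read on the reverse strand, which begins 39 bases before the start.
TYMS promoter: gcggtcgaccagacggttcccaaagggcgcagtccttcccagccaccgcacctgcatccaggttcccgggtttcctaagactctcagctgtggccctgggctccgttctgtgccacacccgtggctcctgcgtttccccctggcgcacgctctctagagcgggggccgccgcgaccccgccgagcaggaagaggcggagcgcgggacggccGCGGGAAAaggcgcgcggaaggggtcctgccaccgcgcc

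Other genes of nucleotide supply, from lists of named pathways, give the setting of the members. In PD30 against DMSO, 5 of 22 other genes of deoxynucleotide supply were lower, 3 were higher and 14 were not called (median log2 fold change -0.03, beside 0.00 over all genes tested, of which 25.4% were lower and 22.9% higher). Among those lower was CMPK2, a mitochondrial UMP/CMP kinase (-2.97 ± 0.22, edgeR adjusted p = 4.91e-06), at low means of 3.45 CPM in DMSO and 0.44 in PD30. CDA, cytidine deaminase (1.33 ± 0.21, 6.26e-04), and ITPA, which removes inosine triphosphates (0.44 ± 0.10, 0.00570), rose most. Of 11 genes of folate one-carbon units, 5 were lower and 3 higher, with SHMT1, serine hydroxymethyltransferase, at -1.77 ± 0.12 (3.66e-06), MTHFD1 at -1.05 ± 0.08 (8.81e-06) and the folate carrier SLC46A1 at 1.59 ± 0.13 (8.57e-06).

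Purine genes fell in PD30 in 9 of 14 cases and rose in 0, with a median of -0.51, beside the same 25.4% lower and 22.9% higher of all genes. PRPS2, which makes the sugar phosphate that purine synthesis starts from, was at -1.71 ± 0.09 (4.91e-07), and GMPS, GMP synthetase, at -1.43 ± 0.09 (1.45e-06). Of 11 pyrimidine genes, 5 were lower and 1 higher (median -0.25). The nucleoside transporters went apart, SLC29A1 at -2.51 ± 0.14 (8.80e-07) and SLC29A2 at 2.36 ± 0.22 (2.64e-05), and UMPS was at -0.66 ± 0.10 (4.30e-04). Of 7 genes that supply reductase with thiols, 1 was higher, the glutaredoxin GLRX (0.93 ± 0.16, 0.00133), and 0 were lower.

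With Nutlin alone, 4 of the 22 deoxynucleotide genes were lower and 9 higher (median 0.30, beside 0.03 over all genes tested, of which 28% were lower and 26.6% higher). Besides RRM2B, TYMP, thymidine phosphorylase, rose (1.74 ± 0.41, edgeR adjusted p = 0.00519), while CMPK2 (-1.57 ± 0.23, 3.24e-04) and PNP, purine nucleoside phosphorylase (-0.81 ± 0.10, 1.32e-04), fell. TYMP and CMPK2 were low, with means of 0.294 and 3.45 CPM in DMSO and 0.933 and 1.07 CPM in Nutlin. Of the folate genes 2 were lower and 3 higher, among them MTHFD2 (-0.54 ± 0.09, 8.99e-04), SHMT1 (-0.43 ± 0.09, 0.00302), MTHFD2L (0.62 ± 0.16, 0.00829) and SLC46A1 (0.46 ± 0.16, 0.0313).

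Purine genes were lower with Nutlin in 7 of 14 cases and higher in 1 (median -0.21), beside the same 28% lower and 26.6% higher of all genes. GMPS (-1.13 ± 0.10, edgeR adjusted p = 1.35e-05) and PPAT, the first enzyme of purine synthesis (-1.10 ± 0.10, 2.00e-05), fell most, and APRT rose (0.52 ± 0.18, 0.0338). Pyrimidine genes were lower in 5 of 11 and higher in 0 (median -0.26), led by the uridine-cytidine kinases UCK2 (-1.35 ± 0.12, 1.27e-05) and UCK1 (-1.33 ± 0.14, 3.96e-05). Of the 7 thiol donors, GLRX2 fell (-0.55 ± 0.14, 0.00788) and TXN, thioredoxin, rose (0.31 ± 0.10, 0.0270).

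**Figure D5:**
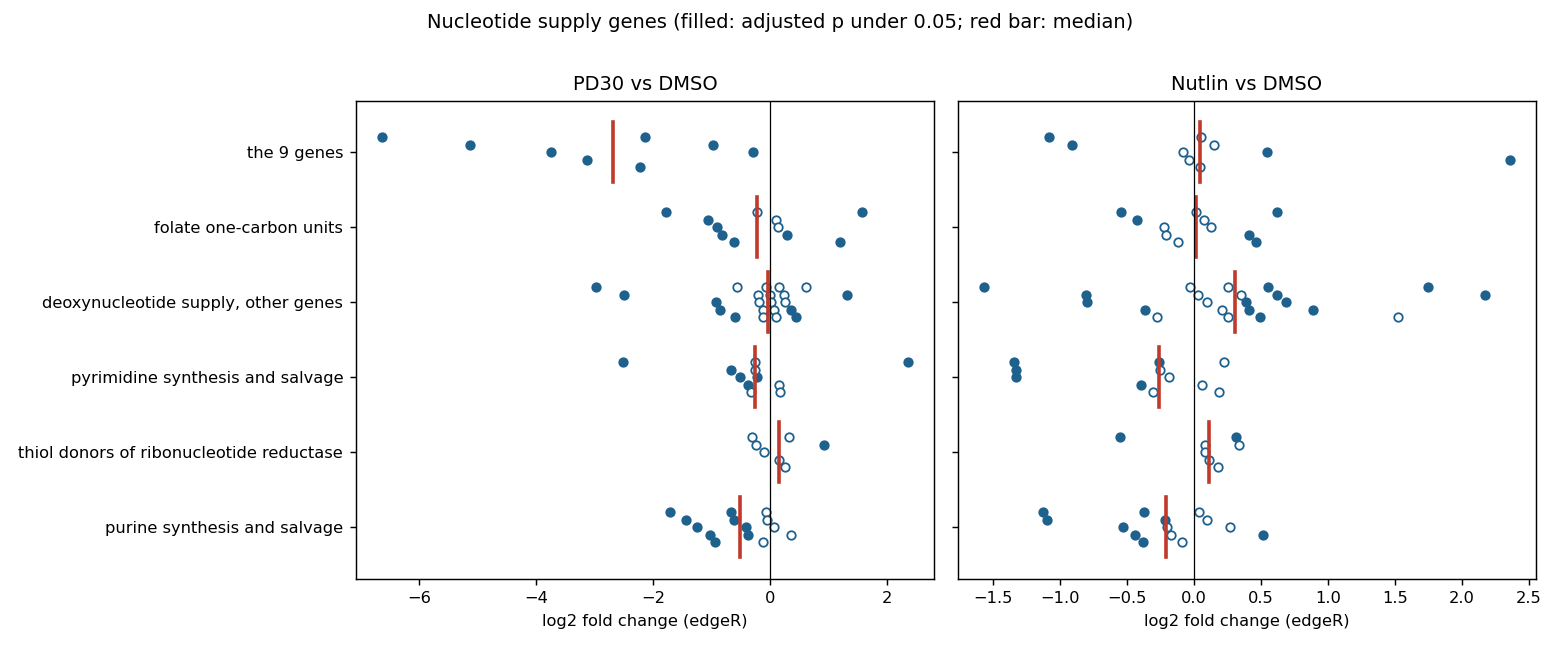
Log2 fold changes of the 9 genes and of 5 lists of nucleotide supply genes in PD30 against DMSO and in Nutlin against DMSO, by edgeR. Each point is a gene, filled where the adjusted p was under 0.05, and red bars are medians. In PD30 the median of the 8 members tested is -2.68 while the medians of the 5 lists lie between -0.51 and 0.17.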

How the data were processed

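Per the study's methods and the submitters' processing notes, the authors mapped single-end reads to hg19 with TopHat and Bowtie2 and used HTSeq 0.6.0 in union mode, with the reverse-strand setting, to count reads by gene symbol. The authors deposited 4 tables. DMSO, Nutlin, PD24, PD30 and N+PD30 are counts (whole numbers, though the tables are named as variance-stabilized). The deposited N+PD24 columns hold a signal in which each library's counts were divided by its size factor. Multiplied back, 100% of values were whole reads within 0.01 reads. The labels and the study name different HiSeq models. Not used here were 2 tables of size-factor-normalized values of the same libraries and the authors' DESeq2 comparison of Nutlin with DMSO (base means, fold changes, p-values). DMSO and Nutlin columns repeated between tables were identical and used once.

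CPM used each library's own total, which sets the precision of low genes such as C2orf48. Groups came from the sample titles. Pairs of groups were compared with edgeR 4.0.16 (quasi-likelihood, TMM, filterByExpr, R 4.3.3), and interactions over 12 libraries. Contrasts with N+PD24 used limma 3.58.1 with trend on log2(CPM + 1) for genes of at least 1 CPM in 3 libraries. Calls were a Benjamini-Hochberg adjusted p under 0.05 over all genes tested. The fits were tested on simulated counts of independent libraries with the same dispersion for every gene. That setting does not cover replicate effects or the differing spread of genes in these data. Alternatives were DESeq2 1.42.0, edgeR on the recovered reads, scaling by total, quantile normalization, no filter, a pseudocount of 0.25, a replicate block, all 15 libraries deposited as counts, an added limit of 1 on the absolute log2 fold change, and each replicate left out. Replicate numbers were taken to pair 2 groups where the deviations from the group means correlated above 0.1 for all 3 numbers. This held for N+PD24 against Nutlin (0.441 to 0.669), PD24 against PD30 (0.313 to 0.597), N+PD30 against PD30 (0.2 to 0.694) and N+PD24 against PD24 (0.214 to 0.534). The limit of 0.1 was a choice, and unlike numbers were not correlated, so shared replicate effects between the other groups are not excluded. COL1A2, for example, was highest in replicate 1 and lowest in replicate 3 in all 6 groups.

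Named in the text are the members, RRM2B, 3 drug and line checks, genes sharing exon bases with a member, the 5 genes most like RRM2 or C2orf48, and per list the 2 largest falls and rises in PD30 or Nutlin against DMSO. Some genes that this rule names are not reported here. Members and lists were chosen with earlier results of these data known. Of the gene rows, 28 carry date names from a spreadsheet and were kept apart. Coordinates are from GENCODE v44 on GRCh37 and promoters from RefSeq on GRCh38.p14.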

Additional observations from a re-analysis of the deposited data

Results flagged for a closer look

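The response to Nutlin with PD0332991 differed from that without it, by an interaction term, in 4 cases among the members and RRM2B. TYMS differed by 1.57 on the log2 scale with the 30 h schedule (edgeR adjusted p = 1.18e-04, 7.00e-04 at most over its alternatives). With the 24 h schedule TYMS differed by 1.81 (limma, 6.84e-05, 7.42e-04 at most). Its rise was larger with PD0332991 on the log2 scale, from low levels, and smaller in CPM. RRM2B differed by -0.77 with the 30 h schedule (edgeR, 0.0319, from 0.00834 to 0.0767 over its alternatives), its rise being smaller. RRM2 differed by 0.91 with the 24 h schedule (limma, 0.0487, from 0.00710 to 0.156), its level falling with Nutlin alone and having means of 4.65 CPM in PD24 and 4.28 CPM in N+PD24.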

How the results depend on the processing

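Over 113 single gene results and their 1479 alternatives, 0 called values changed sign, 1410 kept the side of the threshold, 53 lost a call and 16 gained one, and those of members stand beside their results. Depth limits C2orf48 most, with 0 to 2 reads in each library with PD0332991.

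Counts of members moved as follows. With Nutlin against DMSO, quantile normalization gave 3 members lower (RRM1 added) and 1 higher in place of 2 and 2, with C2orf48 not tested, and the limit of 1 on the log2 fold change gave 1 lower and 1 higher. For PD24 against PD30, the replicate block gave 1 lower and 1 higher in place of 0, and the fit over 15 libraries gave 1 lower. For N+PD24 against N+PD30, quantile normalization gave 2 higher and the limit on the fold change 0, in place of 1. For N+PD30 against PD30, the block gave 2 higher in place of 1, the limit on the fold change gave 0 lower in place of 1, and leaving out a replicate gave 0 to 1 lower. For N+PD24 against PD24, with 1 lower and 2 higher, scaling by total gave 2 lower and 1 higher, the block 2 lower and 3 higher, quantile normalization 0 lower, the limit on the fold change 0 lower and 1 higher, and edgeR on the recovered reads or no filter 1 higher. Of all 13624 genes there, the block called 3766 lower and 3651 higher, and scaling by total 3958 lower and 1312 higher. Quantile normalization called 2435 of them lower. With edgeR on the recovered reads 2597 of 15517 genes were higher, and with no filter 2959 of 21340. Leaving out a replicate there gave 0 to 1 members lower and 1 higher. For the interaction with PD30, the block gave 2 higher in place of 1, beside 2597 of all 16113 genes. For that with PD24, with 2 higher, the block gave 3, edgeR on the recovered reads, a pseudocount of 0.25 and the limit on the fold change each gave 1 higher, no filter gave 1 lower (C2orf48) and 1 higher, and leaving out a replicate gave 1 to 2 higher. Over all genes, quantile normalization called 3796 lower and 3482 higher of 13814 for Nutlin against DMSO. For N+PD24 against N+PD30 it called 2199 higher of 13644. The block called 2987 lower and 3120 higher of 15171 for PD24 against PD30, and 2250 higher of 15077 for N+PD30 against PD30. For the interaction with PD24, the block called 245 higher of 14308, and no filter 156 lower and 153 higher of 21602. Causes of the moves were not tested, except where fewer samples or genes were fitted.

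Counts over all genes moved with the limit on the fold change, from 8614 to 3277 for Nutlin against DMSO, 7307 to 2305 for PD30 and 5781 to 1898 for PD24 against DMSO, 7711 to 3510 for N+PD30 and 5223 to 1121 for N+PD24 against Nutlin, 3816 to 1137 for PD24 against PD30, 4461 to 1026 for N+PD24 against N+PD30, 2183 to 555 for N+PD30 against PD30, 5025 to 1224 for N+PD24 against PD24, and 3193 to 1647 and 239 to 127 for the interactions with PD30 and PD24. The replicate block gave 7956 for N+PD24 against Nutlin, 6107 for PD24 against PD30, 4375 for N+PD30 against PD30 and 420 for the interaction with PD24, whose count was 116 with edgeR on the recovered reads and 157 with a pseudocount of 0.25. The block and the pairing of replicate numbers changed no other member call. Where 2 groups did not meet the rule for pairing, correlations ran from -0.286 to 0.616, and all members kept their calls with the block. Missing the rule does not show that the replicates of 2 groups are independent.

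Leaving out a replicate gave 2178 to 4117 genes for PD24 against PD30 (lowest without PD30 replicate 1, 2520 without PD30 replicate 3), 2572 to 4312 for N+PD24 against N+PD30 (lowest without N+PD24 replicate 2, 2702 without N+PD30 replicate 2), 583 to 3384 for N+PD30 against PD30 (lowest without PD30 replicate 1, highest without N+PD30 replicate 3, 1150 and 1064 without PD30 replicates 2 and 3, 625 without N+PD30 replicate 2), 2834 to 4213 for N+PD24 against PD24 (lowest without N+PD24 replicate 2), and 106 to 205 for the interaction with PD24 (lowest without Nutlin replicate 2, 137, 110 and 131 without DMSO replicates 1, 2 and 3, 158 without PD24 replicate 2, 156 without N+PD24 replicate 2).

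The share of called genes that were lower moved from 51.3% to 63.3% for Nutlin against DMSO, from 55.6% to 75.1% for N+PD24 against PD24, from 49.2% to 66.0% for N+PD24 against N+PD30 and from 38.9% to 56.2% for N+PD30 against PD30 with scaling by total (57.0% in the fit over 15 libraries). Quantile normalization moved it from 52.5% to 41.3% for PD30 and from 54.4% to 43.4% for PD24 against DMSO, and from 35.5% to 48.5% for the interaction with PD30. N+PD24 was left out of the fit over the libraries deposited as counts.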
